A study of Gossypium with 24 samples.

Results

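The gene set described here holds 56 of the 60633 cotton gene IDs in the count table. These genes were higher in roots at the end of prolonged darkness than 24 h after the return to light. On the scale of library totals their levels were similar whether the roots had been waterlogged or not, and under other scalings most of them were not within the same bounds. The genes were selected on their CPM values (the gene's share of a library's counts, with every library scaled to the same total), averaged over the 3 libraries of a group. A gene was kept when its drained control was lower at 24 h than at 0 h by at least 1.5 on the log2 scale, and when its waterlogged roots lay within 0.75 of their controls on that scale at both times. Both conditions had to hold in both varieties, and 0.5 CPM was added to each mean before ratios were taken. Because these measurements chose the genes, the falls at 24 h and the waterlogging ratios are given below as descriptions, with no test.

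The libraries came from roots of Gossypium seedlings of variety 9001, which the submitters call tolerant of waterlogging, and variety 4847, which they call sensitive. Every group had spent 96 h in darkness, the drained controls included, and the waterlogged plants spent that time under water. Roots were sampled at the end of the dark period (0 h), or 24 h after the plants had been returned to light, by which time the waterlogged plants had been drained (24 h). There were 8 groups with 3 libraries in each. No group stayed in darkness through the last 24 h, so light and elapsed time cannot be told apart. The files pair the IDs with no gene names, so no member is given a function here and the labelled tissue was not checked against root markers. Totals ran from 21423479 to 39945111 counts per library, and waterlogged 4847 at 24 h was the shallowest group, with no library above 22442564.

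As background, a root depends on sugar sent down from the leaves, and that supply runs short in prolonged darkness. Plants then switch on a starvation programme, in part through the energy-sensing kinase SnRK1, in which protein, lipids and amino acids are broken down for fuel, and the programme is switched off when sugar returns. Waterlogging adds a shortage of oxygen, which slows respiration and moves cells towards fermentation. Whether any member belongs to one of these programmes was not tested, since the IDs carry no description.

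Genes that were lower at 24 h in both varieties' controls seldom had all 4 waterlogging ratios within the bounds. The same control means enter the fall and these ratios. Choosing genes by their fall therefore favours ratios below 0 at 0 h and above 0 at 24 h. The fall of at least 1.5 was met by 2076 IDs in 9001, 2212 in 4847 and 1738 in both. Of these 1738, 972 were lower in waterlogged than in control roots at 0 h by 0.75 or more in both varieties, and 242 were higher by as much. At 24 h, 857 were higher in roots that had been waterlogged by 0.75 or more in both varieties and 33 were lower. The 4 waterlogging ratios were all within bounds for 56 of the 1738, or 3.22%. With CPM scaled by trimmed means (TMM, described further on) the same conditions were met by 196 of 2901 such genes, or 6.76%, and with DESeq2's relative log expression scaling by 145 of 2454, or 5.91%. On library totals, among the 45582 IDs with a mean of at least 1 CPM in some group, 5698 (12.5%) had all 4 ratios within bounds, whatever their change between the times.

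**Figure D1:**
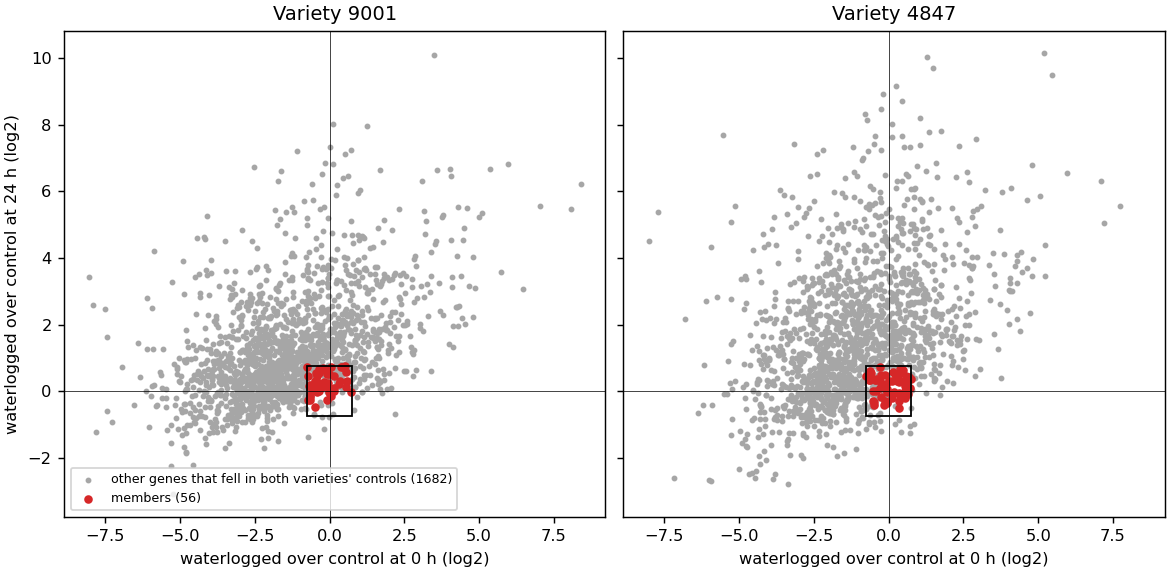
Waterlogged over control at 0 h (x axis) against the same ratio at 24 h (y axis), both as log2 ratios of (CPM + 0.5), for the 1738 genes that were lower at 24 h in both varieties' controls. The 56 members (red) fill the box of the bounds at 0.75 in both panels, while the other 1682 genes (grey) spread mostly to the left of it and above it.

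Membership near the bounds rests on small differences. Ghir_A07G002560 was the last member inside the limit on the fall, with -1.50066 as the smaller of its changes in the 2 varieties, and Ghir_A06G014650 missed it at -1.49993. The member nearest the bound on waterlogging, Ghir_D06G023050, had a ratio of 0.749492, and Ghir_D09G003150 was left out at 0.752944. Few members were close to their controls in every ratio: 13 of 56 had all 4 within 0.5 and 1 had all 4 within 0.25.

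In the drained controls the members were left with about 25% of their level after 24 h, to a similar extent in both varieties. At 0 h the median member stood at 41.8 CPM in 9001 and 35.0 CPM in 4847, and at 24 h at 8.64 and 8.69 CPM. The median share of the 0 h level left at 24 h was 25.4% in 9001 and 25.9% in 4847. The log2 change reached -3.85 in 9001 and -3.03 in 4847, with a median of -1.85 in each. At least a 4-fold fall was met by 26 members in 9001, 25 in 4847 and 22 in both. All 3 control libraries at 24 h lay below all 3 at 0 h for each of the 56 members in both varieties, a separation that the selection favours. In bulk tissue, fewer cells of a type and less RNA per cell cannot be told apart.

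Added together, the members made up 3544 ± 7.62 CPM in control 9001 and 3349 ± 15.0 CPM in control 4847 at 0 h (SD, n = 3 each). At 24 h the sums were 937 ± 17.9 and 911 ± 6.64 CPM. Waterlogged roots gave 3109 ± 49.2 CPM in 9001 and 3562 ± 19.9 CPM in 4847 at 0 h, then 1119 ± 9.73 and 1019 ± 23.0 CPM at 24 h. The 0 h and 24 h libraries are far apart in every variety and treatment. At 0 h the waterlogged sum lay below its control in 9001 and above it in 4847, and at 24 h it lay above in both. The order in 9001 at 0 h turned with the scaling: in TMM-scaled CPM the sum was 5325 ± 19.1 in waterlogged and 3351 ± 29.1 in control roots.

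**Figure D2:**
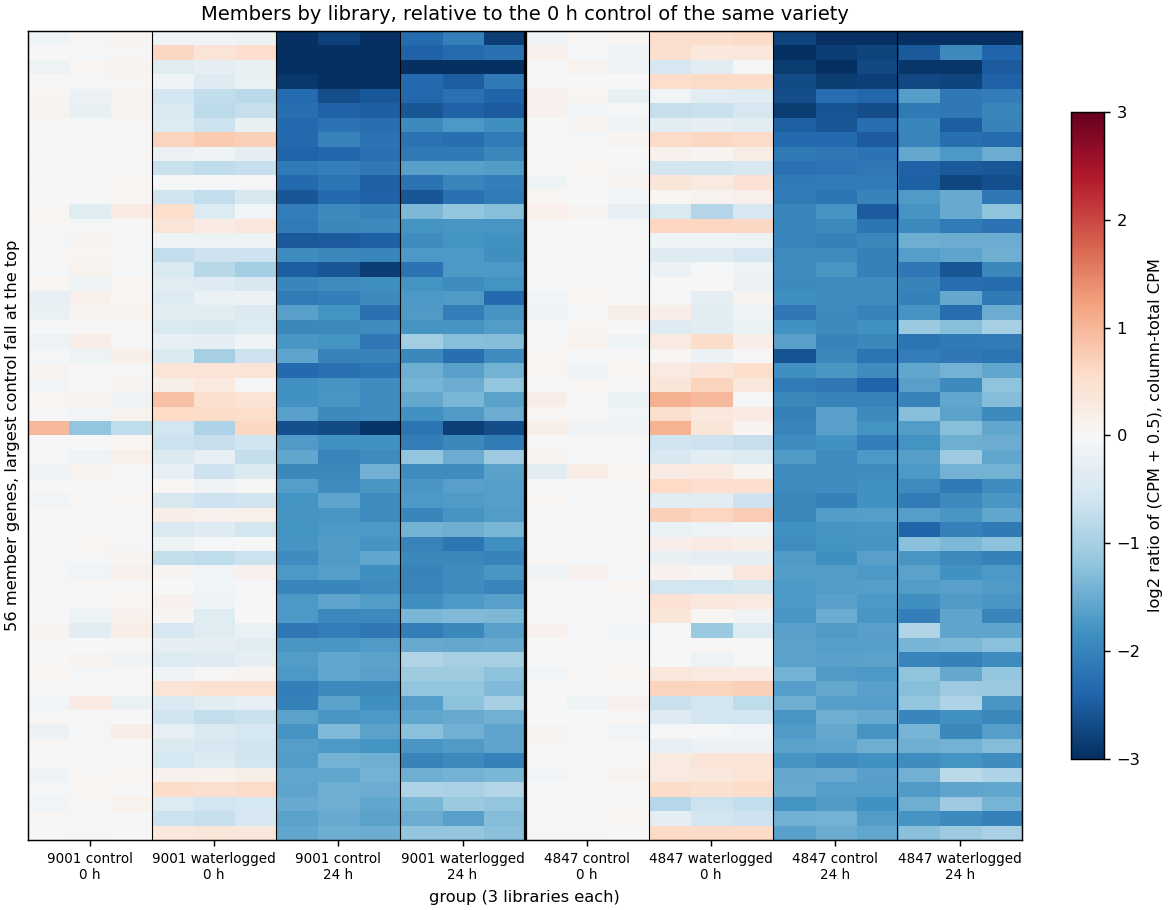
Each row is 1 of the 56 members, with the largest control fall at the top, and each column 1 of the 24 libraries. Colour gives the log2 ratio of (CPM + 0.5) to the mean 0 h control of the same variety. Blue fills the control and waterlogged columns at 24 h in both varieties, and the waterlogged columns at 0 h stay pale. Among the control columns of 9001 at 0 h, the reddest cell belongs to Ghir_D06G002560, whose first library measured 52.1 CPM.

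The members with the largest falls, judged by the smaller of the falls in the 2 varieties, were Ghir_D12G004980 and Ghir_D06G023050. Ghir_D12G004980 measured 21.0, 23.3 and 24.2 CPM in the control libraries of 9001 at 0 h, and 2.36, 2.87 and 1.98 CPM at 24 h. In 4847 its controls measured 16.7, 18.2 and 18.7 CPM at 0 h, and 2.18, 1.56 and 1.52 CPM at 24 h. The 24 h libraries lie far below those of 0 h in both varieties, 9.49-fold in 9001 and 10.2-fold in 4847. In waterlogged 9001 it went from 20.7, 21.3 and 20.6 CPM to 4.21, 5.17 and 2.81 CPM. In waterlogged 4847 it went from 25.8, 25.8 and 26.7 CPM to 1.77, 1.43 and 1.17 CPM. The waterlogged libraries at 24 h do not overlap between varieties, and the decline was 5.13-fold in 9001 and 17.9-fold in 4847. Ghir_D06G023050 stood at 38.7 ± 1.08 CPM in control 9001 and 29.8 ± 2.69 CPM in control 4847 at 0 h, and at 4.18 ± 0.197 and 3.55 ± 0.509 CPM at 24 h. Its waterlogged roots were above their controls at both times, at 55.1 ± 4.50 CPM in 9001 and 38.9 ± 2.57 CPM in 4847 at 0 h, and at 7.37 ± 0.537 and 5.90 ± 1.48 CPM at 24 h.

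The members with the highest CPM in the 0 h controls were Ghir_A08G022420 and Ghir_D11G018850. Ghir_A08G022420 measured 331, 354 and 326 CPM in control 9001 and 325, 333 and 333 CPM in control 4847 at 0 h. At 24 h the same groups measured 58.1, 59.1 and 61.4 CPM and 85.0, 81.0 and 85.5 CPM. The varieties overlapped at 0 h and separated at 24 h, with 9001 the lower. Its waterlogged roots went from 305 ± 1.78 to 94.9 ± 1.77 CPM in 9001 and from 302 ± 5.09 to 118 ± 0.889 CPM in 4847. Ghir_D11G018850 measured 266, 281 and 248 CPM in control 9001 and 249, 257 and 250 CPM in control 4847 at 0 h, and 82.1, 90.0 and 86.2 CPM and 82.5, 81.5 and 82.1 CPM at 24 h. Its controls overlapped between varieties at both times. Waterlogged 9001 went from 206 ± 7.78 to 136 ± 4.79 CPM, a 1.51-fold decline, and waterlogged 4847 from 242 ± 14.0 to 64.3 ± 3.03 CPM, a 3.76-fold decline. It was the member with the smallest waterlogged decline in 9001.

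**Figure D3:**
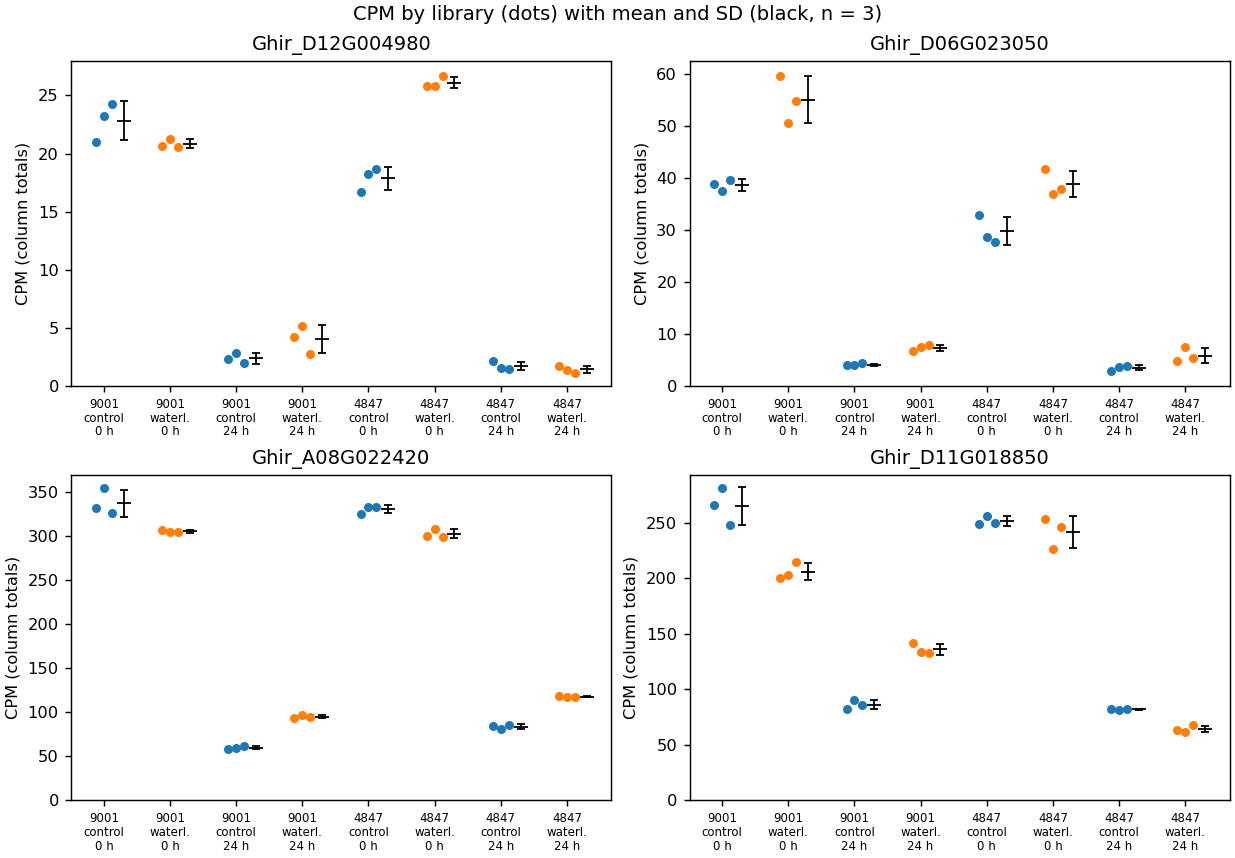
CPM in each library (blue dots for controls, orange for waterlogged roots) with the mean and SD of the group (black, n = 3) for Ghir_D12G004980, Ghir_D06G023050, Ghir_A08G022420 and Ghir_D11G018850. In each panel the 0 h libraries stand above the 24 h libraries of the same variety and treatment. Ghir_D11G018850 keeps the highest 24 h level in waterlogged 9001, at 136 CPM.

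The conditions of the selection together force the mean of the waterlogged roots to be lower at 24 h than at 0 h, so only the size of that decline was free to vary. All 3 waterlogged libraries at 24 h lay below all 3 at 0 h for 56 members in 9001 and 55 in 4847. The selection favours this separation too. The median decline was 3.06-fold in 9001 (1.51 to 26.6) and 3.94-fold in 4847 (1.49 to 27.4), beside control medians of 3.94-fold and 3.87-fold. A 2-fold decline was reached by 49 members in waterlogged 9001 and 52 in waterlogged 4847, and a 4-fold decline by 14 and 26. On library totals, 46 of 56 members declined less in waterlogged than in control roots of 9001, and 33 of 56 did in 4847. With TMM those counts were 20 and 28, so the order for 9001 turned with the scaling.

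The closeness of waterlogged and control levels held on the scale of library totals and less on others. TMM scaling assumes that most genes do not change. Its factor was 0.584 for waterlogged 9001 at 0 h and 1.47 for the controls at 24 h, so it moves the ratios of all genes. On library totals the median of the 45582 expressed IDs was -0.72 in 9001 and -0.53 in 4847 for waterlogged over control at 0 h, and -0.22 and -0.66 at 24 h. The members' medians were -0.27 and -0.02 at 0 h, and 0.20 and 0.21 at 24 h, above the median expressed gene in each case. With TMM the expressed IDs had medians of -0.12 and -0.07 at 0 h and 0.02 and -0.04 at 24 h. The members' medians then became 0.56 and 0.65 at 0 h, and 0.43 and 0.70 at 24 h. All 4 ratios were above 0 for 8 members on library totals and for 50 with TMM. Only 15 of the 56 met the thresholds of the selection with TMM and 14 with relative log expression scaling. With pseudocounts of 0.1 and 1 CPM, 46 and 45 met them, and 45 to 46 did when 1 replicate number was left out of every group. The fall in the controls kept its limit under both scalings for all 56 members, with TMM medians of -2.24 in 9001 and -2.26 in 4847.

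**Figure D4:**
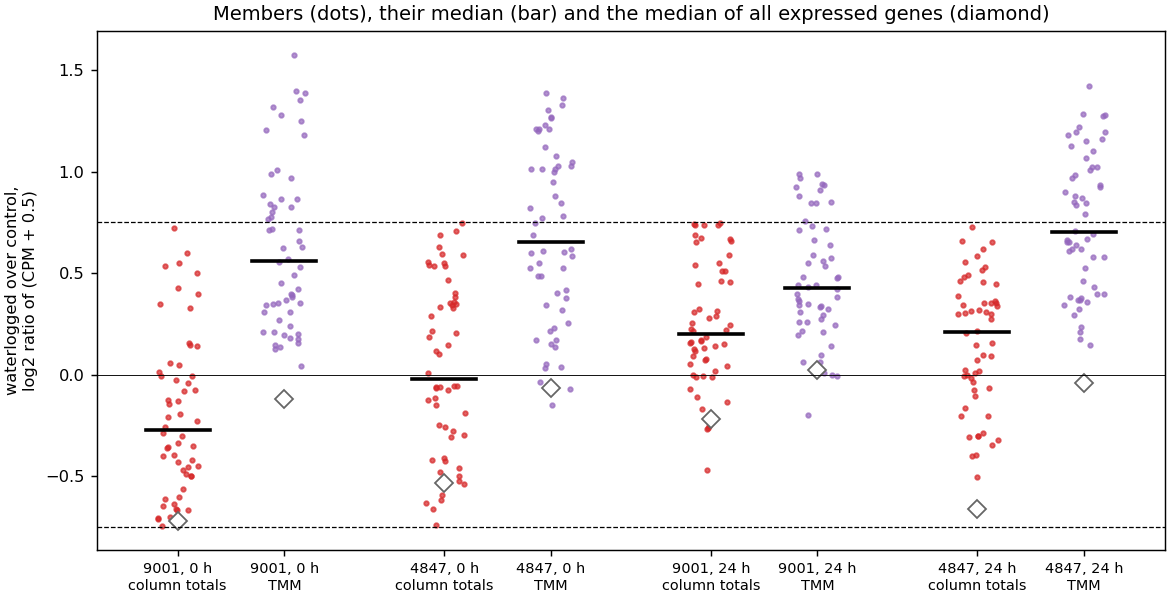
Waterlogged over control as log2 ratios of (CPM + 0.5), by variety and time, for library totals (red, "column totals") and TMM scaling (purple). Dots are the 56 members, bars their median, diamonds the median of the 45582 expressed genes, and dashed lines the bounds at 0.75. The members sit above the diamond in each column by their median, a position that the selection favours, and with TMM many pass the upper bound.

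On library totals the waterlogging ratio at 0 h was above 0 for 15 members in 9001 and 28 in 4847, and it was higher in 4847 than in 9001 for 47 of 56. At 24 h it was above 0 for 44 members in 9001 and 37 in 4847, and higher in 4847 for 27. With TMM the ratio was above 0 for 56 members in 9001 and 53 in 4847 at 0 h, and for 53 and 56 at 24 h, so the order of the varieties in these counts turned with the scaling at both times. With TMM the ratio was higher in 4847 for 35 members at 0 h and for 42 at 24 h. These ratios were used in the selection and their differences were not tested.

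The selection favours genes with high levels at 0 h, since a large fall needs a level to fall from. Per length, in the authors' FPKM (fragments per kilobase of gene, scaled to the library total), the median member stood at 16.4 in control 9001 and 15.8 in control 4847 at 0 h, against 2.25 in each over the IDs above 0. Above that median were 52 members in 9001 and 51 in 4847. The median length was 2129 bases (372 to 6529), against 1770 bases over all IDs, and 38 members exceeded the latter. The D labelled chromosomes held 32 members and the A labelled ones 24, or 42.9% of members on A against 49.1% of all IDs and 50.3% of the genes lower at 24 h. The members were spread over 24 of the 26 chromosome labels, no pair of them were neighbours in the table, and D06 held the most with 5. Where A and D copies are nearly identical, reads may fit either, and their counts are then uncertain; how such reads were handled and whether strand was used is not given in the sources used here.

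Levels ran from 1.34 to 337 CPM in control 9001 at 0 h and from 1.12 to 330 CPM in control 4847. At least 10 CPM in both was reached by 46 members and at least 100 CPM by 9, whereas 5 stood under 5 CPM in both. The replicate spread was small for most: the median coefficient of variation was 12.5% in waterlogged 4847 at 24 h and between 3.99% and 7.60% in the other groups. At 24 h the controls held 3 counts or fewer over all libraries for 2 members in 9001 and 3 in 4847, so the size of those falls is poorly fixed. Ghir_D06G002560, chosen after its values were seen, stood apart. It measured 52.1, 11.3 and 15.2 CPM in control 9001 at 0 h. Its waterlogged 9001 libraries at 0 h were also uneven, at 17.6, 13.6 and 40.9 CPM. Without the control library at 52.1 CPM its waterlogging ratio at 0 h went from -0.12 to 0.83, outside the bound. That 0.83 still includes the waterlogged library at 40.9 CPM, so it cannot decide whether the gene meets the bound.

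The selection made no direct comparison between the varieties. The comparisons here ask whether the members were set at different levels in 9001 and 4847 under the same condition. Counts were tested with edgeR's quasi-likelihood test over 50638 genes, with TMM scaling and Benjamini-Hochberg adjustment, and genes with adjusted p under 0.05 are called different. All 56 members passed the filter on low counts, which the 0 h libraries alone could carry them through. The bounds on waterlogging tie the waterlogged comparisons to the control ones. The 4 are therefore not independent, and the waterlogged ones are not free of the selection. The control comparisons are not wholly free of it either, since the same control means had to fall by at least 1.5 in both varieties. Whether replicate libraries stand for separate plants is not stated in the labels, and the p-values therefore reflect spread among libraries that may be technical.

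In control roots at 0 h, 13 of 56 members (23.2%) differed between varieties, against 14.8% of all genes tested. Most members stood at higher levels than the median gene at 0 h, and the shares of all genes given here and below were not matched for level. Higher in 9001 were 9 members (7.47% of all genes) and lower were 4 (7.34% of all genes), and the median difference was 0.03 on the log2 scale, with 50 of 56 within 0.5. Ghir_A09G018370 measured 8.67, 10.2 and 10.4 CPM in 9001 and 3.57, 3.95 and 3.33 CPM in 4847, with no overlap. Its fitted difference was 1.41 ± 0.192 (SE, adjusted p = 1.96e-07). Ghir_A01G015210 measured 113, 119 and 117 CPM in 9001 and 74.2, 70.6 and 77.5 CPM in 4847, a difference of 0.64 ± 0.0492 (adjusted p = 4.09e-14). The named members that were lower in 9001 differed little. They were Ghir_A07G017100, at 51.1 ± 2.67 against 57.7 ± 1.21 CPM (adjusted p = 0.0442), and Ghir_A05G038490, at 62.6 ± 2.37 against 69.6 ± 1.26 CPM (adjusted p = 0.0455). These last calls were weak: they held in 4 and 3 of 15 alternative settings, with adjusted p from 0.00271 to 0.177 and from 0.00357 to 0.254. Ghir_D06G002560 was also called higher in 9001, by 1.17 ± 0.305 (adjusted p = 0.00482), and without the first 9001 library the difference was 0.19 (adjusted p = 0.737). The count of 13 became 8 without that library and 9 or 10 without another.

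In control roots at 24 h, when members stood low, 15 of 56 (26.8%) differed, against 19% of all genes tested. Higher in 9001 were 10 members (9.95% of all genes) and lower were 5 (9.08% of all genes), with a median of 0.01 and none of the calls reaching 2-fold. Ghir_D11G019200 measured 2.96, 2.26 and 2.50 CPM in 9001 and 1.34, 1.89 and 1.75 CPM in 4847, a difference of 0.63 ± 0.178 (adjusted p = 0.00793). Ghir_D06G012240 measured 2.67, 2.75 and 2.55 CPM in 9001 and 1.95, 1.84 and 1.47 CPM in 4847, a difference of 0.59 ± 0.180 (adjusted p = 0.0132). Neither overlapped between varieties, but the first call was lost without the first library of either variety and the second without the third of 4847. Lower in 9001 was Ghir_D05G025250, at 1.00, 0.916 and 0.676 CPM against 1.60, 1.79 and 1.39 CPM, a difference of -0.88 ± 0.238 (adjusted p = 0.00483). Lower too was Ghir_A08G022420, whose values stand above, by -0.50 ± 0.0428 (adjusted p = 5.31e-13). Ghir_A11G002810, chosen after its values were seen, had the highest fitted difference and was not called: it had 8 counts in 1 library of 9001 and none elsewhere in the controls at 24 h.

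In waterlogged roots at 0 h, 25 of 56 members (44.6%) differed, against 31% of all genes tested. Higher in 9001 were 11 (15.6% of all genes) and lower were 14 (15.4% of all genes), with a median of -0.07. Scaled by library totals alone the split was 7 higher (10.6% of all genes) and 25 lower (26.4% of all genes), so all genes leaned to lower on that scale too. Ghir_A01G015210 measured 118, 110 and 114 CPM in 9001 and 50.2, 49.7 and 52.8 CPM in 4847, a difference of 1.33 ± 0.0505 (adjusted p = 4.25e-25). Ghir_A09G018370 measured 7.41, 7.97 and 8.31 CPM in 9001 and 2.38, 2.82 and 3.47 CPM in 4847, a difference of 1.61 ± 0.199 (adjusted p = 7.45e-09). Both were also higher in 9001 in the controls at 0 h. Lower in 9001 was Ghir_D05G026140, at 90.4, 75.4 and 86.2 CPM against 140, 143 and 141 CPM, a difference of -0.59 ± 0.0615 (adjusted p = 1.10e-10). Ghir_D01G023180 measured 170, 183 and 167 CPM in 9001 and 275, 297 and 296 CPM in 4847, a difference of -0.57 ± 0.0529 (adjusted p = 3.01e-12). The controls of Ghir_D05G026140 at 0 h measured 98.4 ± 3.35 CPM in 9001 and 96.1 ± 1.12 CPM in 4847.

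In waterlogged roots at 24 h, 29 of 56 members (51.8%) differed, against 62.6% of all genes tested. With TMM, 5 were higher in 9001 (33.2% of all genes) and 24 lower (29.4% of all genes), and the median was -0.29 against 0.11 over all genes. That split turned with the scaling: on library totals 21 members were higher in 9001 (52.7% of all genes) and 12 lower (15.5% of all genes), and the median over all genes was 0.55. On the TMM scale the median member lay below the median gene. The selection held the members' waterlogging ratios within 0.75 in both varieties. Over all expressed genes the median ratio at 24 h was -0.22 in 9001 and -0.66 in 4847 on library totals. The members' place beside all genes, in their median and in the share called, is therefore not free of the selection. Which variety held more of the members cannot be read from the calls alone. Ghir_D12G004980, whose values stand above, was higher in 9001 by 1.04 ± 0.205 (adjusted p = 2.53e-05). Ghir_D01G005210 measured 11.0, 9.24 and 9.13 CPM in 9001 and 3.97, 4.19 and 4.27 CPM in 4847, a difference of 0.79 ± 0.145 (adjusted p = 7.41e-06). Lower in 9001 was Ghir_A03G021310, at 19.0, 18.8 and 20.1 CPM against 32.9, 29.4 and 35.5 CPM, a difference of -1.20 ± 0.0686 (adjusted p = 1.32e-19). Ghir_A12G026810 measured 16.2, 14.3 and 18.2 CPM in 9001 and 27.7, 25.9 and 28.3 CPM in 4847, a difference of -1.20 ± 0.0720 (adjusted p = 7.95e-19). The libraries of these 4 did not overlap and each kept its direction on library totals, with differences of 1.48, 1.24, -0.76 and -0.75.

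**Figure D5:**
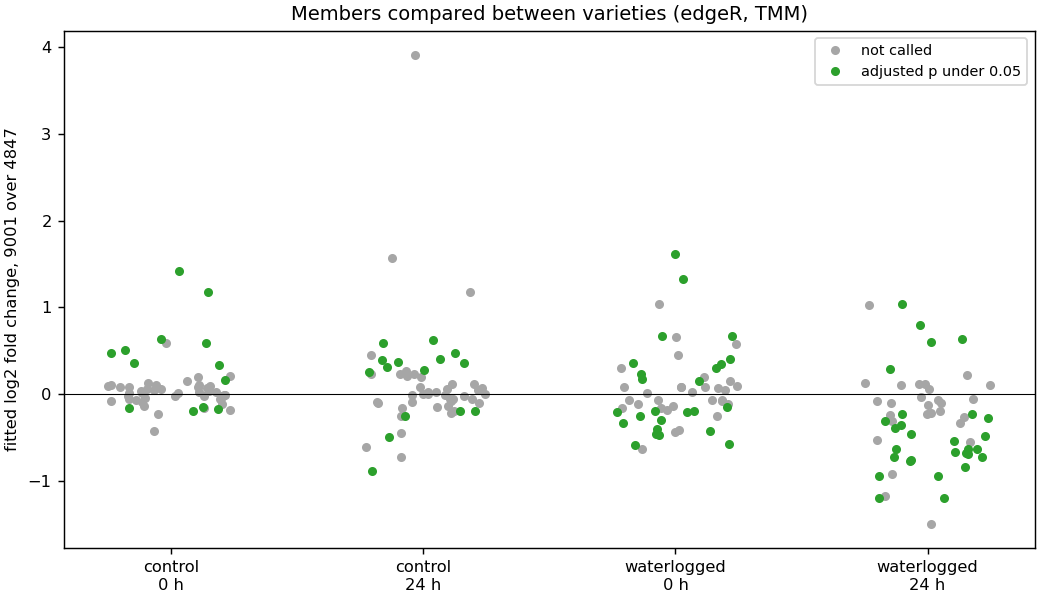
Fitted log2 fold change of 9001 over 4847 (y axis) for the 56 members in the 4 conditions (x axis), with adjusted p under 0.05 in green. The controls lie close to 0 apart from a few members, and in waterlogged roots at 24 h most called members lie below 0 on this scale. The grey dot near 3.91 is Ghir_A11G002810, which had no counts in the control libraries of 4847 at 24 h.

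Across the 4 comparisons, 13 members were called in none (26.3% of all genes tested), 24 in at least 1 control comparison (26.5% of all genes) and 19 only in waterlogged ones (47.2% of all genes). Called in both control comparisons were 4 members (7.33% of all genes), all higher in 9001. Called in opposite directions in different conditions were 9 members (16.9% of all genes), close to that share. Called in all 4 (4.14% of all genes) were Ghir_A05G023310 and Ghir_D03G012490, chosen after their values were seen. Ghir_A05G023310 was higher in 9001 in each, by 0.16, 0.28, 0.16 and 0.60 in control roots at 0 h and 24 h and waterlogged roots at 0 h and 24 h. On library totals its waterlogged roots at 0 h measured 109 ± 3.63 CPM in 9001 and 110 ± 2.95 CPM in 4847, so the difference there rests on the scaling. Ghir_D03G012490 was higher in 9001 by 0.48, 0.31 and 0.35 in the first 3 and lower by -0.23 in the last. On library totals that last difference turned, since the 9001 libraries measured 54.0, 55.7 and 61.2 CPM and those of 4847 measured 46.5, 48.3 and 52.3 CPM.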

How the data were processed

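Whole-number counts per gene ID, as deposited by the authors with no normalization, were used for all 24 libraries. The deposited FPKM table, scaled by the authors to library totals and gene length, gave levels per length and 1 malformed line was left out. Per the labels' protocols, total RNA was extracted with a Qiagen RNeasy kit and made into libraries with a SMARTer mRNA-Seq kit. Per the submitters' processing notes the build is mm10, a mouse assembly, whereas the IDs carry cotton A and D chromosome labels. Which aligner and counting tool were run is not given in the sources used here.

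Members and lists were chosen with earlier results of these data known. Gene lists and cell type markers defined by gene descriptions could not be applied, and no annotation or sequence was used here. Named are the 2 members whose smaller fall was the largest and the 2 with the highest CPM in the 0 h controls. Up to 2 more are named per variety comparison and direction. These had adjusted p under 0.05, no overlap of libraries in TMM-scaled CPM and a mean of 1 CPM or more in the higher group. Of such members, those with the largest fitted change were taken.

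Counts were tested in R 4.3.3 with edgeR 4.0.16 (filterByExpr, TMM, glmQLFit, glmQLFTest), all libraries in 1 fit with 16 residual degrees of freedom. Before that, the code was tested on simulated data for the comparison of control roots at 0 h only. The SE is the log2 fold change divided by the square root of its F statistic. Per-library values are CPM on library totals, whereas fitted differences are TMM-scaled. Alternatives were relative log expression, upper-quartile and library-total scaling, no filter, a replicate block, DESeq2 1.42.0, limma 3.58.1 on log2(FPKM + 1) and log2(FPKM + 0.1), only the libraries compared, and each library left out.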

Additional observations from a re-analysis of the deposited data

Results flagged for a closer look

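Differences between varieties ran in opposite directions in different conditions for 3 named members: all 3 libraries of 9001 lay above all 3 of 4847 in 1 condition and below them in another, in TMM-scaled CPM. The difference between the conditions was not tested. Values are log2 of 9001 over 4847. Ghir_D12G004980 stood at 0.34 in control roots at 0 h, -0.16 in waterlogged roots at 0 h, where it was not called, and 1.04 in waterlogged roots at 24 h. Ghir_A08G022420 stood at 0.18 in waterlogged roots at 0 h, -0.50 in control roots at 24 h and -0.76 in waterlogged roots at 24 h. Ghir_D01G023180 stood at 0.09 in control roots at 0 h, where it was not called, and 0.40 at 24 h, but at -0.57 in waterlogged roots at 0 h and -0.48 at 24 h. On library totals 2 of these lost the separation. Ghir_A08G022420 in waterlogged roots at 0 h measured 305 ± 1.78 CPM in 9001 and 302 ± 5.09 CPM in 4847 (SD, n = 3 each), and Ghir_D01G023180 in waterlogged roots at 24 h measured 60.2, 64.6 and 59.1 CPM in 9001 and 62.0, 64.6 and 62.0 CPM in 4847.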

How the results depend on the processing

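The number of members called in control roots at 0 h, 13, became 8 and 6 with limma on log2(FPKM + 1) and log2(FPKM + 0.1), and 8 to 10 with 1 library left out. The cause was not tested. Shares of all genes called under the alternatives are not given beside the counts in this section. No move in these counts can therefore be read as particular to the members. Leaving out 1 library gave 11 to 16 called in control roots at 24 h, 21 to 28 in waterlogged roots at 0 h and 28 to 33 in waterlogged roots at 24 h. Members meeting the selection thresholds numbered 15 with TMM and 14 with relative log expression scaling, of 56, and 45 to 46 with 1 replicate number left out.

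The split of calls into higher and lower in 9001 moved with scaling. In control roots at 0 h it was 9 and 4, against 10 and 1 on library totals. In control roots at 24 h it was 10 and 5, against 11 and 3 with the upper quartile. In waterlogged roots at 24 h it was 5 and 24, against 10 and 19 with the upper quartile, and against 18 and 12 or 21 and 13 with limma on the FPKM.

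With a replicate block, 11, 13, 24 and 29 members were called in the order above. Between the varieties within a condition, deviations of same-numbered libraries correlated at -0.0308 to 0.0254. These values gave no sign that the numbers pair those libraries. Pairing across treatments or times was not checked. Members picked by the naming conditions for a variety comparison were followed through the alternatives in that comparison only, and Ghir_D06G002560 in control roots at 0 h. Of these alternative values, 225 kept their call and 30 lost it, and no direction turned. Ghir_A05G023310 and Ghir_D03G012490 were not among them, and the latter turned on library totals as described above. Low counts at 24 h limit the size of the control falls, and the shallower waterlogged 4847 libraries at 24 h limit the last comparison.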
